A study of Mus musculus with 2 samples.

Results

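Acrosome formation and content genes were followed across the germ cell stages of mouse testis by single-cell RNA sequencing. The list of 40 symbols names proteins stored in the acrosome, proteins of its membranes, and proteins needed to build or release it. By symbol, 37 of the 40 were found among the 39232 genes of both count tables. The other 3 symbols, Hrb, Acrosin and Sp56, are other names of Agfg1, Acr and Zp3r, which are on the list themselves. Of the 37 genes found, 36 had at least 50 unique molecular identifiers (UMIs, each standing for 1 captured RNA molecule) over the germ cells of both libraries, and Syt6 had 19.

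The acrosome is a secretory vesicle that caps the sperm nucleus. It is built in round spermatids from vesicles of the Golgi apparatus, which fuse on the nuclear envelope, and it spreads over the nucleus as the spermatid elongates. Its enzymes and binding proteins are released when sperm meet the egg coat, in an exocytosis that uses SNARE proteins. Many genes of the haploid phase are already transcribed in meiosis and their RNA is stored, so RNA and protein need not appear together.

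In the study, 20 male C57 BL/6 mice entered at 5 weeks of age and, after 1 week of adaptation, 10 stayed on maintenance feed and 10 were given a feed in which fat supplied 60% of the energy, for 12 weeks. Testis was measured in 2 libraries, 1 per group, so no test between groups is possible. One is labelled with the high-fat diet (the high-fat library) and the other only with the tissue (the library without a diet label). How many mice went into each library is not stated. The label of both gives germ cells as the cell type, but clusters led by Sertoli, Leydig, stromal, myoid and immune markers were found in both. The myoid cluster also carried endothelial markers, whose summed level over 6 markers was 1644 and 1707 CPM there, against 2660.1 and 6461 CPM for 6 myoid markers, so it was mixed. Values below are given first for the library without a diet label and then for the high-fat library. They are CPM (counts of a gene's UMIs in all cells of a class, divided by the class total and scaled to 1e+06), with exact Poisson 95% intervals. Ratios are the high-fat library over the other, with exact conditional binomial 95% intervals, and both kinds of interval cover counting error only, not the spread between mice.

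The deposited libraries held 13805 and 12661 cell barcodes with median depths of 13024 and 9772 UMIs, and 13286 and 12196 cells were kept. The listed genes and 27 other acrosome genes were left out of the clustering, so no listed gene set the stage it is described in. Class names rest on marker genes and mean "like" throughout. They follow the average enrichment of a marker list, and clusters 2, 4, 6, 7 and 9 had none of their own markers among their top 10 genes. The late round markers summed to 312 and 561 CPM in the early, 1638 and 2926 in the middle and 5398 and 6743 in the late class. The middle round markers were higher in the late class (3547 and 3596) than in the middle class (2987 and 3439), and the early round markers were higher in the middle (420 CPM) than in the early class (405) in the library without a diet label, so these lists do not part the early, middle and late classes sharply. Pachytene spermatocytes (928 and 816 cells), spermatocytes near the divisions (2359 and 1980), early round (2903 and 1666), middle round (2165 and 1637) and late round spermatids (1447 and 1137) had median depths between 14041 and 23429.5 UMIs and are called the deep classes. Spermatogonia (720 and 889), leptotene and zygotene spermatocytes (217 and 421) and elongating spermatids (152 and 227) were shallow, with medians between 2165 and 4114 UMIs. A further 2823 cells of 3 clusters stayed without a name. Most middle round cells lay in cluster 7 in the library without a diet label (1209 of them, against 956 in cluster 6) and in cluster 6 in the high-fat library (1064, against 573 in cluster 7). Most late round cells lay in cluster 13 (814, against 633 in cluster 9) and in cluster 9 (645, against 492 in cluster 13) in that order of libraries. The elongating class also carried Sertoli markers, whose summed level over 12 markers was 2383 and 3317 CPM there, against 24.5 to 60.3 CPM in the deep germ cell classes. The same markers stood at 533 and 373 CPM in leptotene and zygotene spermatocytes and at 197 and 219.6 in spermatogonia, and their part in the levels given for these classes was not tested.

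Sertoli cells build no acrosome, so their level of a listed gene is used as a reference for free RNA in these droplet libraries. For listed genes that many cell types express, such as Gopc, Vps54, Atg7, Csnk2a2, Stx2 and Vamp2, Sertoli cells may hold RNA of their own, and the reference is then no measure of free RNA. Among the 23 genes at 50% or more of their highest level by pachytene (described below), the Sertoli level ran from 66.9% to 732% and from 50.6% to 598% of the round spermatid level, highest for Vps54 in both libraries. The listed genes made up 1.04% and 0.930% of all UMIs in Sertoli cells (783 and 1267 cells, median depth 1355 and 1529 UMIs). In the germ line they made up 0.534% and 0.608% in spermatogonia, 1.03% in pachytene spermatocytes of both libraries, 1.27% and 1.28% near the divisions, 1.45% and 1.41% in early, 1.62% and 1.64% in middle and 1.61% and 1.58% in late round spermatids. Their share thus rose from pachytene to middle round spermatids in both libraries, and among the germ cell classes it was lowest in spermatogonia. In spermatogonia 27 of 36 members, in leptotene and zygotene spermatocytes 25 and in elongating spermatids 28 were at or below the Sertoli level in both libraries, and such values are not shown to lie above background. Near the divisions 15 members, in early round spermatids 18, in middle round spermatids 22 and in late round spermatids 18 lay above the Sertoli level, with intervals that did not overlap in either library. The share of all genes above or below the Sertoli level was not counted. Counts of members against that level, here and below, are therefore not read as particular to the listed genes.

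The members followed 2 main courses, told apart below by their level at pachytene, and the sequences upstream of 2 genes of each course are shown so that the regions can be compared. RefSeq promoters (GRCm38.p6) were on hand for 31 of the 37 members. The letters searched were GTTNCC, the half-site of the X-box bound by RFX factors, which are known regulators of spermiogenesis, on either strand of the 250 bases before the start. It was present in 19 of the 31 members (61.3%), against 42.8% of 27025 genes. Each of the following 250-base stretches, read 5′ to 3′ on the strand of the gene, has 1 match, in capitals. Acrv1 and Spaca1 had their largest step by fold from the divisions to early round spermatids. Acrbp and Dkkl1 were at over 50% of their highest level at pachytene.
Acrv1 (chr9:36692970-36693219, plus strand): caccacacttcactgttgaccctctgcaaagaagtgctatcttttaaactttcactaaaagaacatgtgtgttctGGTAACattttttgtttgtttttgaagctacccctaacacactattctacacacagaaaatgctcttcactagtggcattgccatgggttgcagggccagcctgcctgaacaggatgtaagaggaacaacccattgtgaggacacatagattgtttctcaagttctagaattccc
Spaca1 (chr4:34050066-34050315, minus strand): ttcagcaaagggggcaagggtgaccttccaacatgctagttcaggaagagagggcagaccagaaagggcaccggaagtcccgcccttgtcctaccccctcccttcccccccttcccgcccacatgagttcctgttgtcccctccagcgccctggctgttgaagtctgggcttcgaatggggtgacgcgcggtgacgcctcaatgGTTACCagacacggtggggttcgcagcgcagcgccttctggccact
Acrbp (chr6:125049677-125049926, plus strand): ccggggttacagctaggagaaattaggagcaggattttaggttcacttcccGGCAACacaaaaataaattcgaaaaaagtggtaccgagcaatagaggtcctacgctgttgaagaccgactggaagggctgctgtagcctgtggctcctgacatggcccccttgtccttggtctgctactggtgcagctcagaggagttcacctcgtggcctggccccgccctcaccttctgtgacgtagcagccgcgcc
Dkkl1 (chr7:45211884-45212133, minus strand): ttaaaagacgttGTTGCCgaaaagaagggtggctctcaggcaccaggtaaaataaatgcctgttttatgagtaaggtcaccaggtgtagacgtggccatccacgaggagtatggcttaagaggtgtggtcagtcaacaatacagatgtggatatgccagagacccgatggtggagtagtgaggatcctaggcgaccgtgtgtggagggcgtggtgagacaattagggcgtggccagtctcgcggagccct
The match lay in promoters of both courses, in 5 of 10 late-rising genes and in 12 of 18 genes at 50% or more by pachytene. TGACG, a core of the cAMP response element read by CREM in spermatids, was in 6 of the 31 members (19.4%) and in 19.8% of all genes, and the full element TGACGTCA was in 0 of 31 members and 1.77% of all genes. A match is a run of letters, not a shown binding site.

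Over the 8 germ cell classes, 19 of the 36 members had their highest level in a round spermatid class in each library, 18 of them in both. The background was 25.7% and 25.4% of 26208 genes. The class of the highest level was the same in both libraries for 30 of 36 members, and for 64.9% of all genes. The 6 that differed were Gopc, Pick1, Csnk2a2, Vamp2, Agfg1 and Spaca7. By the mean of both libraries, 7 members were highest in leptotene and zygotene spermatocytes (21.2% of all genes), 3 in pachytene spermatocytes (9.91%), 6 near the divisions (8.07%), 5 in early (3.66%), 5 in middle (8.1%) and 9 in late round spermatids (13.4%), and 1, Iqcf1, in elongating spermatids (8.75%). A round spermatid class was thus highest for 19 by the mean, against 25.2% of all genes. Of the 7 highest in leptotene and zygotene spermatocytes, Pick1, Fndc3a and Vps54 lay above the Sertoli level there in both libraries, in a class with 533 and 373 CPM of Sertoli markers. None was highest in spermatogonia, against 26.9% of all genes.

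Within the 5 deep classes the members fell into groups with little between them. In 23 of 36 the pachytene level was at least 50% of the gene's highest level in both libraries (50.5% of 25308 genes). In 11 it was at most 10%, with the highest level in a round class (17.6% of genes), and these are called late-rising. They are Acrv1, Spaca1, Spaca7, Eqtn, Spam1, Hyal5, Tmco5, Txndc8, Spata46, Zp3r and Iqcf1. Stx2 and Tex21 lay between, with Tex21 the nearer to the late-rising genes at 12.8% and 18.9%. The nearest of those was Spaca7 at 3.98% and 6.34%, and the lowest of the 23 was Zpbp at 57.1% and 54.3%. The late-rising genes stood 21.9 (Zp3r) to 57.6 times (Iqcf1) higher at their highest deep class than at pachytene in the library without a diet label, and 15.8 (Spaca7) to 28.2 times (Iqcf1) in the high-fat library. At pachytene all 11 were at or below the Sertoli level in both libraries. Of the 23 genes, 8 lay above the Sertoli level at pachytene with intervals apart in both libraries (Gopc, Pick1, Mfsd14a, Dkkl1, Tmprss12, Atg7, Smap2 and Csnk2a2). With the Sertoli level of the same library subtracted, 10 members and not 23 were at 50% or more by pachytene, so that count depends on how free RNA is treated, and the late-rising count was 13. Sertoli cells were far shallower (median 1355 and 1529 UMIs) than the deep classes, and the late-rising genes did not exceed their Sertoli level at pachytene. The Sertoli level can therefore exceed the free RNA share of deep cells, and the subtraction can take off too much.

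**Figure D1:**
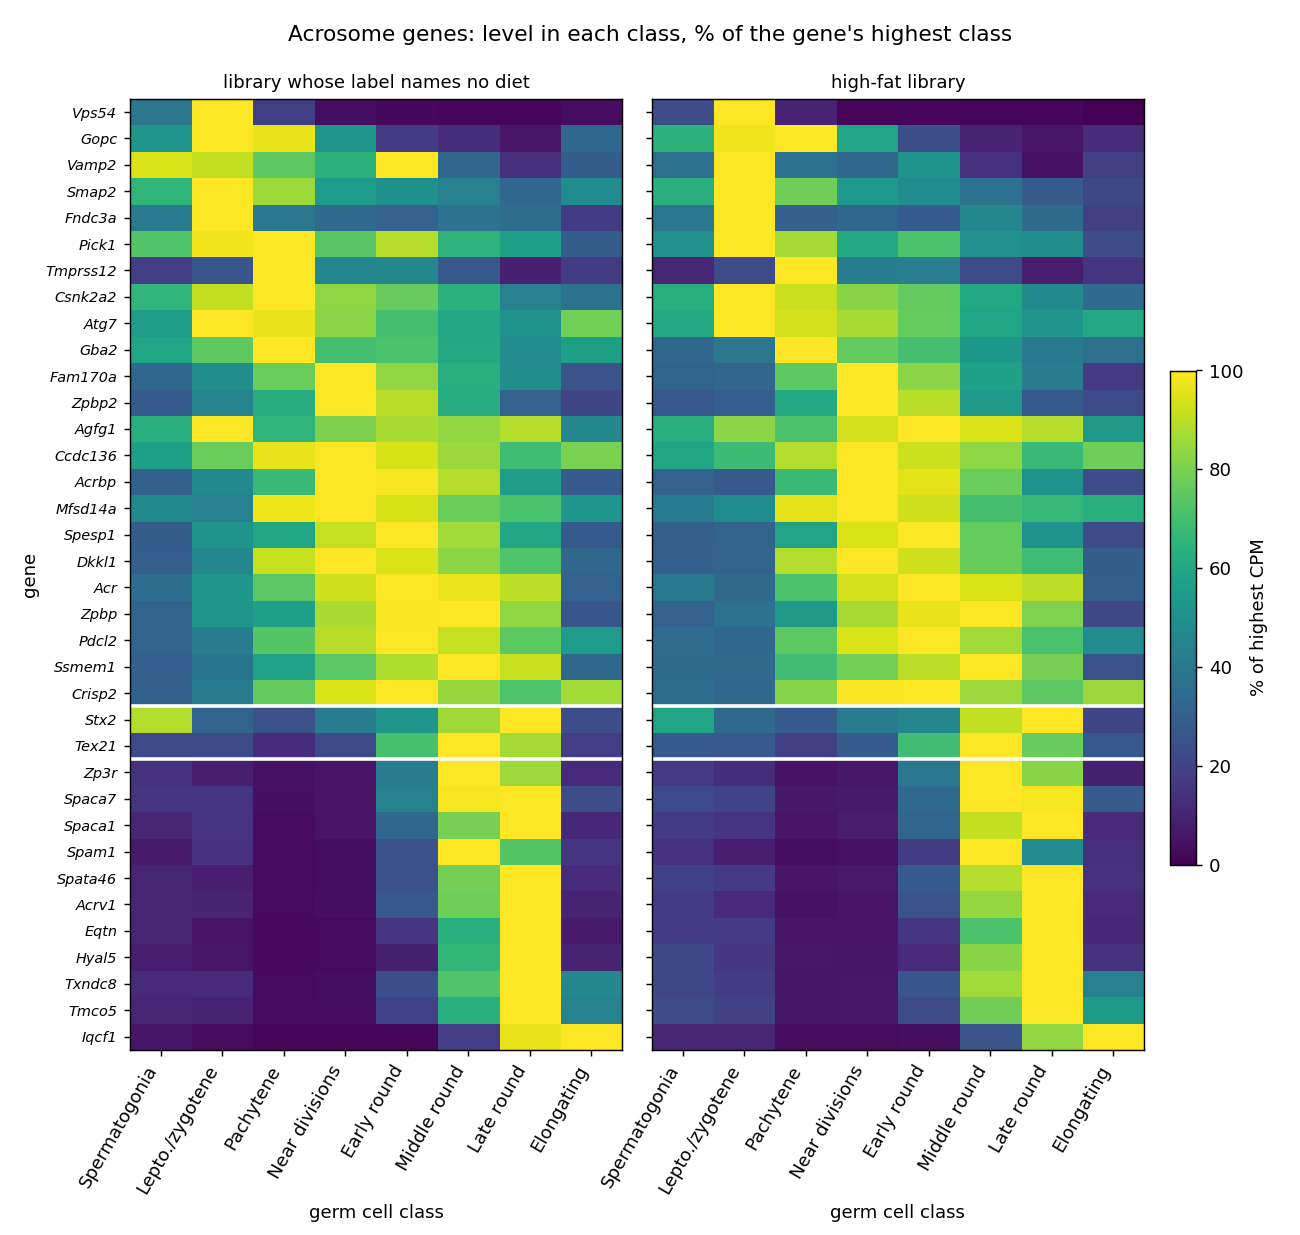
Level of 36 acrosome genes in 8 germ cell classes as a percentage of each gene's highest class (colour, 0 to 100), with the library without a diet label on the left and the high-fat library on the right. White lines part the 23 genes at 50% or more by pachytene (top), the 2 between and the 11 late-rising genes (bottom), whose bright cells stand in the middle and late round columns of both panels, except Iqcf1, which is brightest in the elongating column.

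The proteins stored in the acrosome came from both courses. Acr, which encodes the protease acrosin, was measured at 335 and 291 CPM at pachytene, 418 and 379 near the divisions, 450.3 and 407 in early, 437 and 383 in middle and 406 and 366 in late round spermatids. It was highest in early round spermatids, at 450.3 (445 to 456) and 407 CPM (400.2 to 413), and late round spermatids kept 90.1% of that level in both libraries. Acrbp, whose product binds proacrosin and packs it into the vesicle, was at 788 and 788 CPM at pachytene, 1156 (1146 to 1165) and 1159 CPM (1149 to 1169) near the divisions, 1144 and 1113 in early, 1025 and 895 in middle and 649.7 and 597 in late round spermatids. The level of Acrbp in late round cells was thus 56.2% and 51.5% of its highest, a lower share than that of Acr in both libraries. In Sertoli cells Acrbp was at 779 (741 to 818) and 494 CPM (469 to 521), so in the library without a diet label its pachytene level lay within the Sertoli interval.

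Dkkl1, an acrosomal glycoprotein, was already at 2319 and 2356 CPM at pachytene, was highest near the divisions at 2535 (2521 to 2549.6) and 2667 CPM (2652 to 2681), and stood at 1839.6 and 1839 in late round spermatids. Crisp2, a cysteine-rich protein of the acrosome and the tail, was highest in early round spermatids at 2847 (2833 to 2861) and 2665 CPM (2648 to 2682). It stayed at 2447 and 2265 in elongating spermatids, above the Sertoli level of 2110.3 and 1714, and was 1 of only 4 members above that level there in both libraries. The others were Tmco5, Txndc8 and Iqcf1, all late-rising. Spesp1, of the equatorial segment, was highest in early round spermatids at 444 (438 to 449.6) and 482 CPM (475 to 489).

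Zpbp and Zpbp2, a related pair of acrosomal proteins that bind the egg coat and are needed for acrosome compaction, were not highest in the same class. Zpbp2 was measured at 531 and 447 CPM at pachytene, 850.1 (842 to 858) and 737 CPM (729 to 745) near the divisions, 759.6 and 658 in early, 529.6 and 399 in middle and 268 and 207 in late round spermatids. Zpbp was at 367 and 323, 561 and 518, 639 and 575, 642 (634 to 651) and 595 CPM (587 to 602) and 536 and 480.3 CPM in the same order. From middle to late round spermatids Zpbp2 changed 0.506-fold (0.493 to 0.52) and 0.519-fold (0.504 to 0.536) and Zpbp 0.835-fold (0.818 to 0.853) and 0.808-fold (0.79 to 0.825), so Zpbp2 lost more of its RNA share in both libraries. The early and middle round levels of Zpbp overlapped in the library without a diet label. Zpbp shares exon bases with Spata48 on the opposite strand, and its counts are uncertain to that extent (28147 UMIs for Spata48 and 204398 for Zpbp), since whether the counting used strand is not stated.

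Acrv1 encodes SP-10, a protein of the acrosomal matrix used as a marker of acrosome formation. Its level was 27.9 and 45.2 CPM at pachytene, 36.0 and 51.6 near the divisions, 248 and 253 in early, 699.5 and 834 in middle and 897 (886 to 909) and 992 CPM (979.9 to 1004) in late round spermatids. With every cell thinned to 1000 UMIs, which left out no cell, 3.66% and 6.25% of pachytene spermatocytes showed an Acrv1 UMI, against 57.3% and 61.8% of late round spermatids and 15.2% and 22.4% of Sertoli cells (unthinned 39.7% and 60.0%, 97.0% and 98.4%, and 23.4% and 34.0%). Pachytene cells were therefore below the Sertoli background, and the largest step by fold was between spermatocytes near the divisions and early round spermatids. Spaca7, an acrosomal protein, was at 31.1 and 36.6 CPM near the divisions, 252 and 170.2 in early, 565 and 499.7 in middle and 572 (563 to 581) and 494 CPM (485 to 502) in late round spermatids, and its middle and late levels had overlapping intervals in both libraries. Zp3r, an egg-coat-binding protein of the acrosomal matrix also called sp56, was highest in middle round spermatids at 198 (194 to 203) and 230.3 CPM (226 to 235), with 169 and 189 in late ones.

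**Figure D2:**
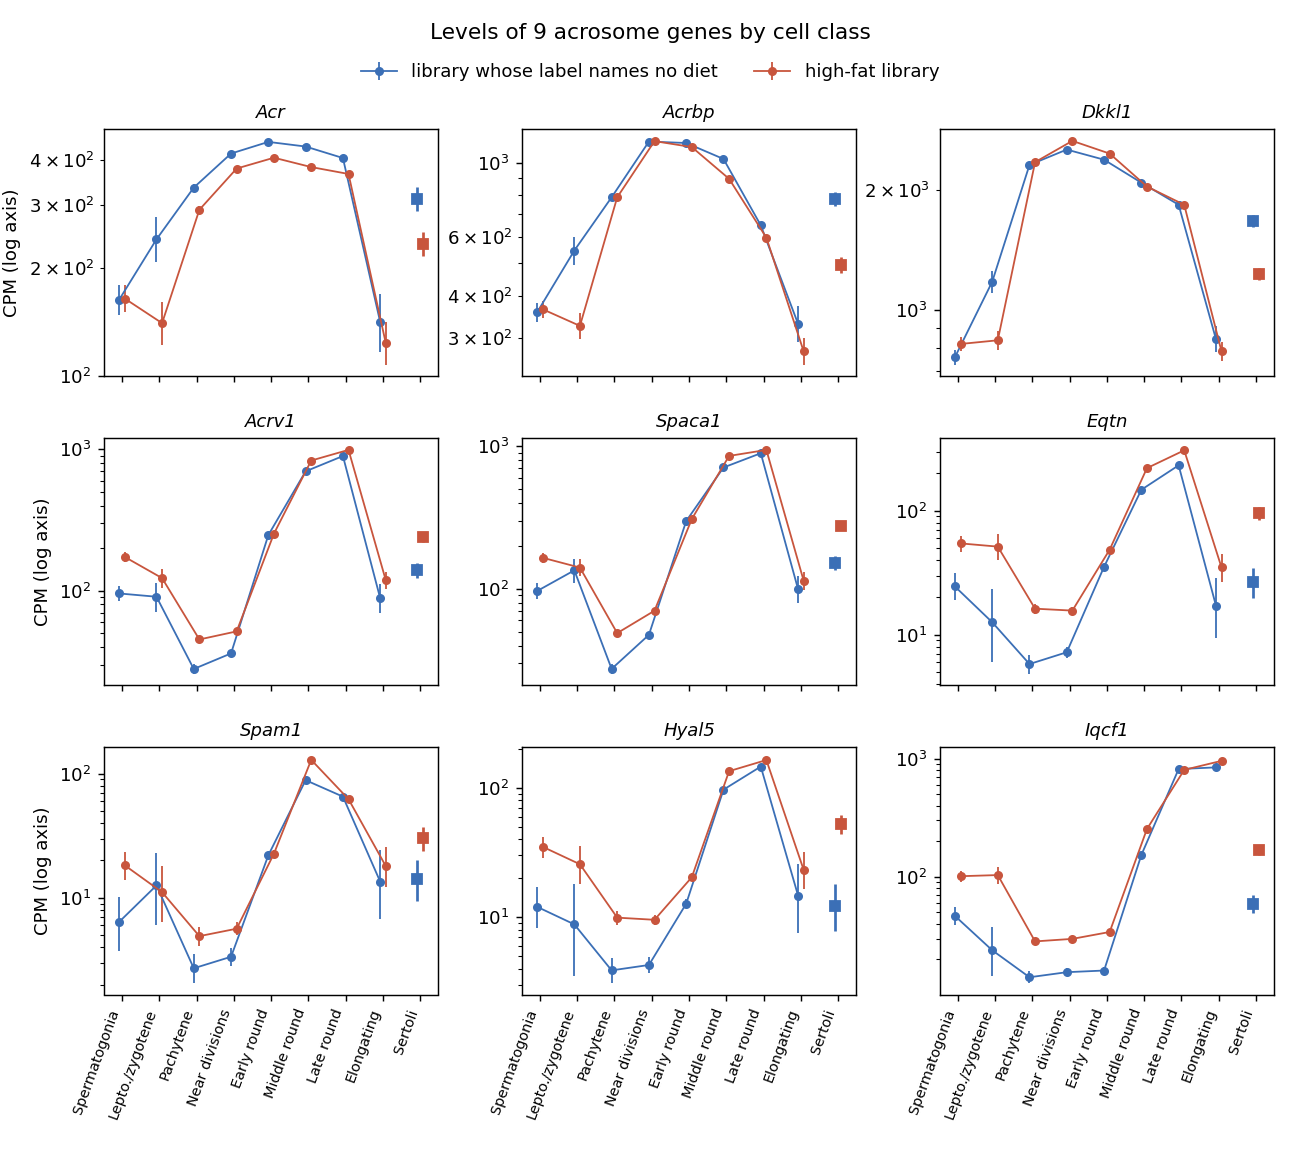
Level (CPM, log axis, ranges differ between panels) of 9 acrosome genes in the 8 germ cell classes (circles) and in Sertoli cells (squares) of both libraries, with exact Poisson 95% intervals. Acr, Acrbp and Dkkl1 are at over 50% of their highest deep level from pachytene on, while the 6 late-rising genes are lowest at pachytene or near the divisions, under the Sertoli squares, and climb through the round classes, Spam1 only up to the middle one.

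Among proteins of the acrosomal membranes, Spaca1, of the inner membrane and needed for acrosome shape, followed Acrv1 closely. It was at 27.4 and 48.9 CPM at pachytene, 47.5 and 70.2 near the divisions, 299 and 308 in early, 709 and 855 in middle and 893 (882 to 905) and 942 CPM (931 to 954) in late round spermatids. Eqtn, equatorin, rose later. Its level was 5.79 and 16.2 CPM at pachytene, 35.3 and 48.5 in early, 148 and 221 in middle and 233 (227 to 239) and 308 CPM (301 to 314) in late round spermatids. From early to middle round spermatids Eqtn changed 4.19-fold (3.98 to 4.42) and 4.55-fold (4.33 to 4.79) and Spaca1 2.38-fold (2.33 to 2.42) and 2.77-fold (2.71 to 2.83), so Eqtn had more of its rise after the early class.

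Spam1 and Hyal5 encode the hyaluronidases that sperm carry on their surface and in the acrosome, enzymes that open the matrix of the cumulus cells. Both genes lie on chromosome 6 with 1 other RefSeq gene, Gm18327, between them. Spam1 was at 2.70 and 4.91 CPM at pachytene, 22.0 and 22.7 in early, 88.8 (85.8 to 91.9) and 129 CPM (126 to 133) in middle and 65.4 and 62.4 in late round spermatids. Hyal5 was at 3.89 and 9.94, 12.7 and 20.4, 96.7 and 134 and 146 (141 to 151) and 164 CPM (159 to 169) in the same order. From middle to late round spermatids Spam1 changed 0.737-fold (0.695 to 0.781) and 0.482-fold (0.456 to 0.51) and Hyal5 1.51-fold (1.44 to 1.58) and 1.22-fold (1.17 to 1.27). The neighbours thus went in opposite directions over that step in both libraries. By cluster, Spam1 stood at 116 and 157 CPM in cluster 6 of the middle class, 111 and 97.9 in cluster 9 and 27.5 and 13.5 in cluster 13 of the late class. Hyal5 stood at 129 and 160, 156 and 175, and 137 and 149 CPM in those 3 clusters. The low late level of Spam1 was thus in cluster 13, where Hyal5 kept most of its level.

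Iqcf1, an IQ-motif protein known from the acrosome reaction, was the last to rise. It was at 16.1 and 34.1 CPM in early, 153 and 253 in middle and 815 and 802 in late round spermatids and was highest in elongating ones at 842 (779.9 to 907) and 956 CPM (910.2 to 1003), where the Sertoli level was 59.1 and 167. In the library without a diet label its late round and elongating intervals overlapped. Its step from middle to late round spermatids was 5.33-fold (5.18 to 5.49) and 3.16-fold (3.09 to 3.24). Txndc8, a spermatid thioredoxin, was highest in late round spermatids at 660.1 (650.3 to 669.9) and 651 CPM (642 to 661), and elongating spermatids held 306 and 285 CPM. Tmco5 had its highest level there too, at 1077 (1064 to 1089.5) and 1158 CPM (1145 to 1171), with 476 and 630.5 in elongating spermatids. Spata46, needed for normal sperm head shape, was highest in late round spermatids at 1222 (1209 to 1236) and 1328 CPM (1314 to 1342).

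**Figure D3:**
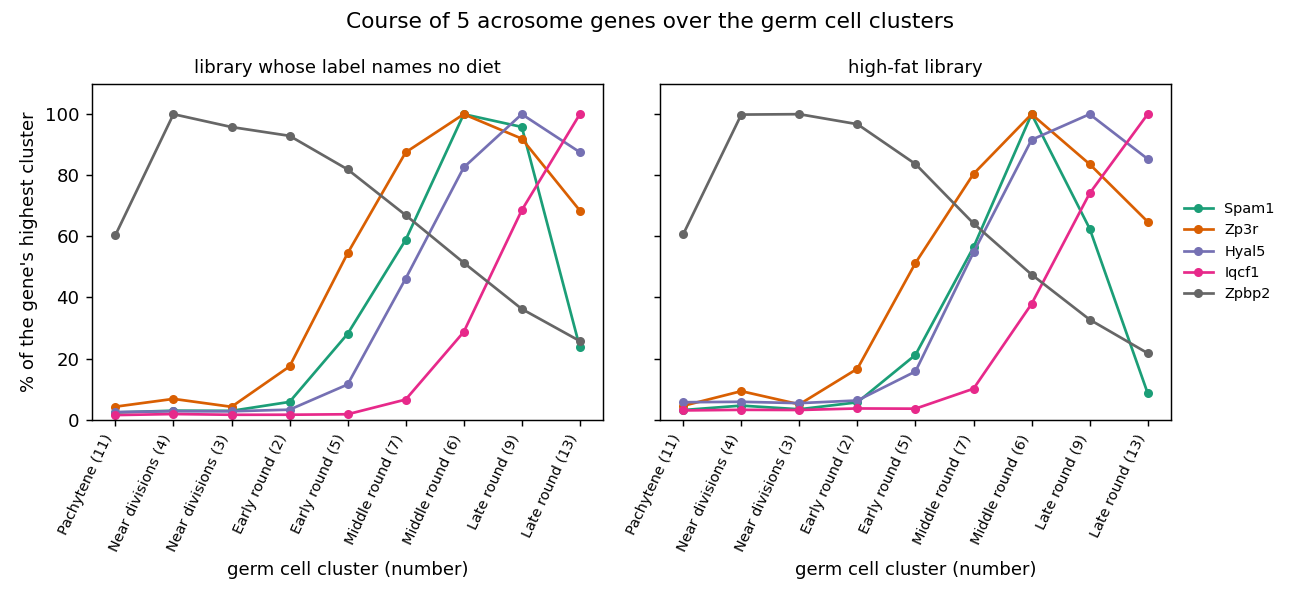
Level of 5 acrosome genes over 9 clusters of the deep germ cell classes (x axis, cluster numbers in brackets, in order of class) as a percentage of the gene's highest cluster (y axis), 1 panel per library. Zpbp2 falls from the division clusters on, Spam1 peaks in cluster 6 and drops in cluster 13, Hyal5 peaks in cluster 9, and Iqcf1 is highest in cluster 13 in both libraries.

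The listed genes given from here to Fndc3a include those that act in building the acrosome. All but Tex21 had reached at least 50% of their highest deep level by pachytene. Some, such as Pdcl2, Ccdc136 and Agfg1, did not lie above the Sertoli level there with intervals apart in both libraries. Pick1 and Gopc, Golgi proteins that move vesicles towards the acrosome, had their highest mean level in leptotene and zygotene spermatocytes. Pick1 was at 69.2 (52.2 to 90.1) and 75.6 CPM (62.1 to 91.2) there, 70.8 and 65.4 at pachytene and 39.9 and 37.8 in late round spermatids. Gopc was at 29.0 (18.4 to 43.4) and 22.2 CPM (15.2 to 31.3) and 27.9 and 22.7 at pachytene, which is within counting error, and fell to 1.74 and 1.38 in late round spermatids. So the 2 vesicle carriers parted after pachytene, with Pick1 keeping 56.4% and 57.8% of its highest deep level and Gopc 6.23% and 6.08%. Agfg1, also called Hrb and needed for vesicles to fuse on the nucleus, was almost level, with 109 (106 to 112) and 102 CPM (98.6 to 105) in early round spermatids and between 72.5 and 111 CPM over the deep classes of both libraries.

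Smap2, which acts in clathrin vesicle budding from the Golgi, was highest in leptotene and zygotene spermatocytes at 52.9 (38.1 to 71.5) and 63.8 CPM (51.5 to 78.3), with 45.2 and 49.9 at pachytene and 17.5 and 18.2 in late round spermatids. Vps54, a tether for vesicles returning to the Golgi, was at 35.2 (23.4 to 50.9) and 59.7 CPM (47.7 to 73.7) in the same class, 6.50 and 5.72 at pachytene and 1.31 and 0.94 near the divisions. It had at most 1.08 CPM in any round class, and its leptotene and zygotene level was above the Sertoli level of 4.88 and 5.08. Csnk2a2, a catalytic subunit of casein kinase 2 whose loss gives round-headed sperm, was at 166 (161 to 172) and 130.4 CPM (126 to 135) at pachytene and 72.8 and 67.0 in late round spermatids. Atg7, an enzyme of autophagy, was at 32.7 (21.4 to 48.0) and 39.5 CPM (30.0 to 51.2) in leptotene and zygotene spermatocytes, 31.6 and 36.9 at pachytene and 16.8 and 20.6 in late round spermatids.

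Gba2, a glucosylceramidase outside the lysosome, was highest at pachytene with 30.2 (27.9 to 32.6) and 31.5 CPM (29.4 to 33.7). It shares exon bases with Creb3 and Rgp1 on the opposite strand, so its counts are uncertain. Tmprss12, a membrane serine protease, was also highest at pachytene at 56.3 (53.2 to 59.6) and 63.4 CPM (60.4 to 66.6), and fell to 26.1 and 26.7 near the divisions, 26.1 and 27.2 in early and 5.10 and 4.91 in late round spermatids. That left 9.07% and 7.75% of its pachytene level in late round cells.

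Pdcl2, a phosducin-like chaperone needed for acrosome formation, was highest in early round spermatids at 2132 (2119.9 to 2145) and 1893 CPM (1879 to 1907), with 1567 and 1418 at pachytene. Ssmem1, a membrane protein needed for normal sperm heads, was highest in middle round spermatids at 593 (586 to 601) and 642 CPM (634 to 649.9). Both were spread over all 5 deep classes, at no less than 57.4% of the highest. Ccdc136 was highest near the divisions at 544 (538 to 551) and 537 CPM (531 to 544), as were Mfsd14a, a transporter-like protein whose loss gives round-headed sperm, at 126 (123 to 129.6) and 138 CPM (134 to 141), and Fam170a at 211 (207 to 215) and 223 CPM (219 to 227). Tex21 was highest in middle round spermatids at 225 (219.9 to 229.6) and 221 CPM (217 to 226), with 28.7 and 41.9 at pachytene. Fndc3a, needed for spermatids to stay apart and attached to Sertoli cells, was highest in leptotene and zygotene spermatocytes at 127 (104 to 154) and 135 CPM (116 to 155), and ranged from 39.0 to 62.3 CPM over the deep classes.

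The SNARE genes ran against each other from early to late round spermatids. Vamp2, the vesicle SNARE, was at 25.1 and 21.9 CPM at pachytene, 33.3 and 30.3 in early, 11.0 and 8.40 in middle and 4.65 and 2.72 in late round spermatids. Stx2, a syntaxin of the target membrane, was at 25.5 and 36.3, 53.4 and 56.6, 87.7 and 113 and 102 (98.5 to 106) and 124 CPM (120.0 to 128) in the same order. From early to late round spermatids Vamp2 thus fell to 14.0% and 8.98% of its highest deep level while Stx2 reached its own highest. Over all germ classes Vamp2 was highest in leptotene and zygotene spermatocytes by the mean, at 30.2 (19.4 to 45.0) and 58.3 CPM (46.5 to 72.2). Stx2 was also high in spermatogonia, before its low level at pachytene. Its late round level was 1.13 and 1.69 times its level in spermatogonia, which lay above the Sertoli level in both libraries. Syt6, a calcium sensor of exocytosis, had 13 and 6 UMIs over all germ cells, of which 10 and 0 in late round spermatids, too few to place. A count of 0 in that class allows up to 3 UMIs of the class total, and 10 of the 13 in 1 class of 1 library is not read further.

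Of 27 other acrosome genes that are not on the list, 11 were at 50% or more of their highest deep level at pachytene (50.5% of all genes) and 13 were late-rising (17.6%). By the mean of both libraries 14 were highest in a round class (25.2%). The first of these shares was below that of all genes. The 4 with the highest level in round spermatids were Spink2, a protease inhibitor of the acrosome, at 2613 and 2549.8 CPM, Prss39 at 819.5 and 722, Fam209 at 712 and 879 and Spaca3 at 520.0 and 603. Spink2 and Prss39 were highest before the middle round class, near the divisions at 3479.6 and 3707 and in early round spermatids at 927 and 873 CPM. Fam209 and Spaca3 were late-rising, with 1370.5 and 1500.5 and 788 and 813 CPM in late round spermatids.

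Between the libraries, the listed genes stood within 2-fold of each other in round spermatids by CPM. Taking early, middle and late round spermatids as 1 class (6515 and 4440 cells, median depth 15139 and 19525 UMIs), 0 of 36 members differed by 2-fold or more in either direction. Among 23362 genes with at least 20 counts, 12% were at least 2-fold higher and 9.24% at least 2-fold lower in the high-fat library. That background holds genes with as few as 20 counts, where counting error is large. The 36 members had at least 558 UMIs each over the deep classes, so the shares are not matched for counts. The median log2 ratio of the members was -0.02, against 0.06 over all genes and 0.18 over the other 27 acrosome genes. The largest was Eqtn, at 115 (113 to 117) and 181 CPM (179 to 184), a ratio of 1.57 (1.54 to 1.61). The lowest was Vamp2, at 19.9 (19.1 to 20.7) and 14.8 CPM (14.1 to 15.6), a ratio of 0.747 (0.7 to 0.797). Round spermatids were unequally made up (early cells 2903 of 6515 and 1666 of 4440), and with the 3 classes weighted equally the median was 0.01. With genes scaled over both libraries together before clustering, 1 member passed 2-fold (Iqcf1), and with the Sertoli level subtracted 6 did (Zpbp2, Fam170a, Mfsd14a, Tmprss12, Atg7 and Csnk2a2, all higher in the high-fat library) and the median was 0.19. Subtracted levels under 0 were set to 0 and given a floor of 3 UMIs. In the library without a diet label little or nothing was left of these 6, while more was left in the high-fat library. Their log2 ratios, up to 12.0 for Zpbp2, rest on that small remainder and are not read as differences.

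In the class of its own highest level each of the 36 members differed by less than 2-fold. These ratios depend on how free RNA is treated: with the Sertoli level of the same library subtracted, 13 of the 36 changed direction, and Ccdc136 and Vamp2 passed 2-fold. The contents genes had ratios of 0.903 (0.885 to 0.922) for Acr, 1.00 (0.991 to 1.01) for Acrbp, 1.05 (1.04 to 1.06) for Dkkl1, 0.936 (0.929 to 0.944) for Crisp2, 1.09 (1.07 to 1.11) for Spesp1, 0.926 (0.909 to 0.943) for Zpbp and 0.867 (0.855 to 0.879) for Zpbp2. They ran from 0.867 to 1.09, but with the Sertoli level subtracted all 7 were higher in the high-fat library, with log2 ratios that went from -0.15 to 0.32 for Acr, 0.0041 to 0.82 for Acrbp, 0.07 to 0.74 for Dkkl1, -0.10 to 0.37 for Crisp2, 0.12 to 0.75 for Spesp1, -0.11 to 0.63 for Zpbp and -0.21 to 0.56 for Zpbp2. The Sertoli class itself differed between the libraries, with its own 12 markers summing to 7697 and 16155 CPM. The subtraction carries that difference into the ratios, and its part was not tested. No direction is therefore read for the contents genes. Late-rising genes had ratios of 1.11 (1.09 to 1.12) for Acrv1, 1.06 (1.04 to 1.07) for Spaca1, 0.863 (0.843 to 0.883) for Spaca7, 0.987 (0.966 to 1.01) for Txndc8, 1.08 (1.06 to 1.09) for Tmco5, 1.09 (1.07 to 1.10) for Spata46 and 1.14 (1.04 to 1.24) for Iqcf1. Larger ones were 1.16 (1.13 to 1.20) for Zp3r, 1.32 (1.28 to 1.37) for Eqtn and 1.46 (1.39 to 1.52) for Spam1, with 1.12 (1.08 to 1.17) for Hyal5. With the Sertoli level subtracted, Acrv1 (log2 ratio -0.011), Spaca1 (-0.15), Hyal5 (-0.26), Tmco5 (-0.32) and Spata46 (-0.23) turned lower, Eqtn went from 0.40 to 0.04 and Spam1 from 0.54 to 0.41. Other settings moved Spam1 too. Its log2 ratio was 0.13 with genes scaled over both libraries together, 0.16 with doublets kept and 0.28 with acrosome genes kept in the clustering. It was 0.73 with each cell weighted equally and 0.51 to 0.53 with the remaining ones. Cluster 6, where Spam1 was highest, held 956 and 1064 middle round cells, against 1209 and 573 in cluster 7. Without any of these changes, Spam1 was higher in the high-fat library in middle round spermatids, and in late ones the ratio was 0.954 (0.892 to 1.02). In cluster 13 of the late class it was lower, at 27.5 and 13.5 CPM, a ratio of 0.493, and Vamp2 was lower there as well, at 5.12 and 2.48 CPM, a ratio of 0.484.

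Of the remaining listed genes, those highest in deep classes had ratios of 0.936 (0.898 to 0.975) for Agfg1, 0.888 (0.88 to 0.896) for Pdcl2, 1.08 (1.06 to 1.10) for Ssmem1, 0.987 (0.97 to 1.00) for Ccdc136, 1.09 (1.05 to 1.13) for Mfsd14a, 1.06 (1.03 to 1.09) for Fam170a and 0.986 (0.956 to 1.02) for Tex21. The lowest was 0.783 (0.747 to 0.821) for Csnk2a2, and others were 1.13 (1.04 to 1.22) for Tmprss12, 1.04 (0.94 to 1.16) for Gba2 and 1.21 (1.15 to 1.28) for Stx2. With the Sertoli level subtracted, the log2 ratio turned from -0.35 to 0.36 for Csnk2a2, from -0.17 to 0.41 for Pdcl2, from -0.019 to 1.03 for Ccdc136 and from 0.06 to -0.22 for Gba2, and moved from 0.08 to 0.86 for Fam170a and from 0.12 to 0.83 for Mfsd14a. In leptotene and zygotene spermatocytes the counts were few and intervals wide, with 1.93 (1.21 to 3.18) for Vamp2, 1.69 (1.09 to 2.69) for Vps54, 1.09 (0.783 to 1.54) for Pick1, 0.767 (0.435 to 1.37) for Gopc, 1.21 (0.829 to 1.78) for Smap2, 1.21 (0.747 to 2.00) for Atg7 and 1.06 (0.828 to 1.36) for Fndc3a. Of these 7, Vamp2 and Vps54 had intervals clear of 1. With the subtraction Vamp2 moved from a log2 ratio of 0.95 to 2.07 and Vps54 from 0.76 to 0.85.

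Taken by whole class, the members that did pass 2-fold were all late-rising, all higher in the high-fat library, and mostly outside the classes where those genes had their highest level. Within single clusters this did not hold, as with Spam1 and Vamp2 in cluster 13 above, and no background share was counted by cluster. In spermatogonia 6 of 36 did (Eqtn, Spam1, Hyal5, Tmco5, Spata46 and Iqcf1, background 8.98%). In leptotene and zygotene spermatocytes 5 did (Eqtn, Hyal5, Tmco5, Spata46 and Iqcf1, background 9.82%). At pachytene 4 did (Eqtn, Hyal5, Spata46 and Iqcf1, background 12.2%), near the divisions 2 (Eqtn and Hyal5, background 12%) and in early round spermatids 1 (Iqcf1, background 10.6%). In middle round spermatids 0 of 36 passed (background 13.1%), likewise 0 of 36 in late ones (background 10.4%), and in elongating spermatids 1 of 34 (Eqtn, background 8.85%). No member was 2-fold lower in any of these classes, where the background was 6.02%, 4.02%, 6.27%, 8.05%, 8.43%, 8.36%, 9.77% and 5.63% in that order. From pachytene on, the share of members that were 2-fold higher was near or under the background.

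The same late-rising genes were higher in Sertoli cells, where 7 of 36 passed 2-fold (the 6 of spermatogonia and Txndc8, background 16.3%) and 0 of 36 were 2-fold lower (background 4.96%). The share of members that were 2-fold higher in Sertoli cells was thus also near the background. Hyal5 was at 12.2 (7.90 to 18.0) and 52.2 CPM (44.1 to 61.5) in Sertoli cells, 12.0 (8.24 to 17.0) and 35.0 CPM (28.9 to 42.0) in spermatogonia and 3.89 (3.09 to 4.83) and 9.94 CPM (8.76 to 11.2) at pachytene. Eqtn was at 26.4 (19.8 to 34.4) and 95.4 CPM (84.2 to 108), 24.5 (18.9 to 31.2) and 54.5 CPM (46.8 to 63.1) and 5.79 (4.81 to 6.91) and 16.2 CPM (14.7 to 17.8) in the same order. All of these levels lay below those of the late round spermatids of the same library. The median log2 ratio of the 11 late-rising genes was 1.03 in spermatogonia, 0.90 in leptotene and zygotene spermatocytes, 0.86 at pachytene, 0.76 near the divisions, 0.13, 0.29 and 0.10 in early, middle and late round spermatids, 0.35 in elongating spermatids and 1.10 in Sertoli cells. For the 23 genes at 50% or more by pachytene it was 0.01, -0.38, -0.11, -0.02, -0.04, -0.11, -0.11, -0.17 and -0.30 in the same classes. The courses were defined with the pachytene levels of these libraries, so the pachytene medians are not independent of the grouping.

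Markers of elongating spermatids moved the same way. All 10 of them had counts in every class, and their summed level was 2088 and 4048 CPM in spermatogonia, 1778 and 3711 in leptotene and zygotene spermatocytes, 579.8 and 1064 at pachytene, 649 and 1137 near the divisions and 3677 and 8922 in Sertoli cells. In late round spermatids it was 26304 and 31129.8 CPM. The Sertoli level of the late-rising genes was at the median 26.8% and 48.6% of their level in round spermatids, and that of the genes at 50% or more by pachytene 89.7% and 73.2%. These markers were higher in the high-fat library in the same classes as the late-rising genes, and their part in the result was not tested.

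**Figure D4:**
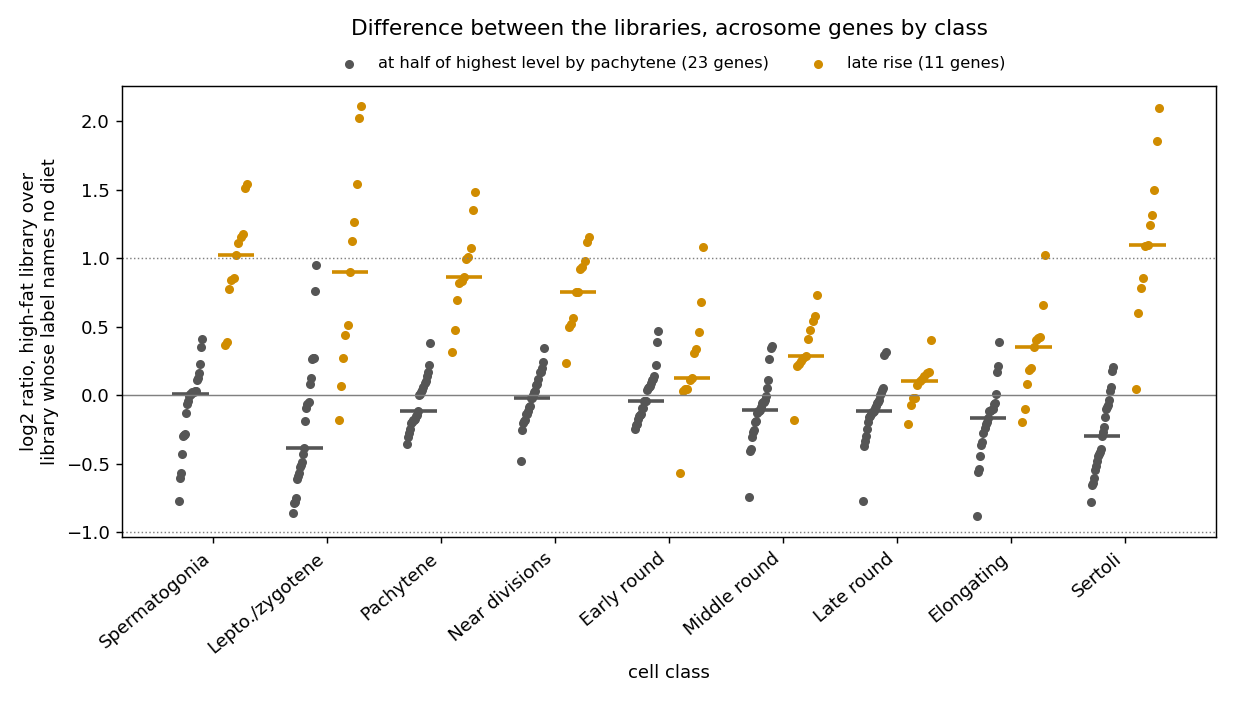
Difference between the libraries (y axis, log2 of high-fat CPM over CPM of the library without a diet label) for each acrosome gene in 8 germ cell classes and Sertoli cells (x axis). Points are genes, grey for the 23 at 50% or more by pachytene and orange for the 11 late-rising genes, bars are medians and dotted lines mark 2-fold, and Stx2 and Tex21 are not drawn. The orange points lie highest in Sertoli cells and before the round stage and come near 0 in late round spermatids.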

How the data were processed

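Testis of 2 mouse libraries, 1 per group, was measured as deposited whole-number UMI counts per gene and cell, written by PISA 1.0 per the file headers. Cell Ranger 2.1.1 is named in the submitters' processing notes. For the aligner, genome build, annotation and use of strand: not given in the sources used here. Both tables, with 36598 and 36476 genes and 207667609 and 201842085 UMIs, held no barcode under 1000 and 1025 UMIs. Barcode names are serial, and 1507 occur in both libraries.

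Cells with under 500 UMIs, under 250 genes or over 20% mitochondrial UMIs were left out (2 and 3 barcodes), as were doublets called by Scrublet at an expected 6% (517 and 462 cells, 3.75% and 3.65%). Clustering used scanpy 1.11.5 in Python 3.11.15 with genes scaled within each library, 2000 variable genes, 50 principal components, 20 neighbours and Leiden resolution 1 (igraph 0.11.9). Clusters were named for the class whose markers, at least 3, were on average most enriched. The smallest mean log2 fold of 0.25 was set after the clusters were seen.

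Counts were summed per library and class, because with 1 library per group no test exists. Intervals used scipy 1.17.1, and the ratio script was tested on simulated data. Ratios needed 20 counts over both libraries. Members with at least 50 germ cell UMIs are named at their highest class, as are the 4 other acrosome genes highest in round spermatids. Members and lists were chosen with earlier results of these data known. Members were matched to GENCODE annotation by ID, and 11 share exon bases with another gene.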

Additional observations from a re-analysis of the deposited data

How the results depend on the processing

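No paired analysis was possible because each group has 1 library and the labels carry no replicate numbers, and no library could be left out. The median log2 ratio of the members in round spermatids was -0.02. It was -0.056 with genes scaled over both libraries together, -0.0049 with doublets kept, -0.0055 with each cell weighted equally, 0.19 with the Sertoli level subtracted, -0.085 when centred on the median of all genes and 0.0073 with the round classes weighted equally, an alternative added after the data were seen. The cause of these moves was not tested. The number of members at least 2-fold apart in round spermatids was 0, and became 1 with genes scaled over both libraries together (Iqcf1, log2 ratio 1.16), 1 with no count minimum (Syt6, -3.13) and 6 with the Sertoli level subtracted (Zpbp2, Fam170a, Mfsd14a, Tmprss12, Atg7 and Csnk2a2). For these 6 the subtraction left little or nothing of the level in the library without a diet label. With that subtraction 10 members, not 23, were at 50% of their highest level by pachytene, and 13, not 11, were late-rising. The Sertoli level can exceed the free RNA share of the deep classes, so the subtraction can take off too much. Over the other alternatives 21 to 23 were at 50% by pachytene, 11 were late-rising, and 16 to 18 were highest in a round class in both libraries (21 without the shallow classes, also added later). Of 36 members, 34 stayed under 2-fold at their highest class in all 8 alternatives. Ccdc136 (log2 ratio 1.03) and Vamp2 (2.07) passed it with the Sertoli level subtracted. Of 288 such values 260 kept their sign. Of the 28 that did not, 13 came with the Sertoli level subtracted (Acr, Acrv1, Spaca1, Zpbp, Zpbp2, Hyal5, Tmco5, Spata46, Pdcl2, Ccdc136, Crisp2, Gba2 and Csnk2a2) and 1 to 4 with each of the other 7 alternatives. Syt6 had 19 UMIs in all germ cells, and spermatogonia, leptotene and zygotene spermatocytes and elongating spermatids had median depths between 2165 and 4114 UMIs.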
